A study of Homo sapiens with 17 samples.

Results

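The ID genes and the BMP signalling genes around them were followed through 5 states of BJ cells, a line of human fibroblasts immortalized with hTERT. Members were taken by gene symbol from a list of 10 genes: ID1, ID2, ID3, ID4, SMAD6, BMP2, BMP4, GREM1, BMPR1A and BMPR2. Of these, 7 had a row among the 9699 transcripts of the table (ID1, ID2, ID3, BMP2, GREM1, BMPR1A and BMPR2), and ID4, SMAD6 and BMP4 were not analysed here. RNA-Seq measured transcript level, and Ribo-Seq measured the density of ribosome-protected fragments on the coding sequence. The ratio of Ribo-Seq to RNA-Seq on the log2 scale is the translation efficiency (TE).

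Bone morphogenetic proteins (BMPs) are secreted ligands that bind pairs of type I and type II receptor kinases, and the type I receptor phosphorylates SMAD1, SMAD5 and SMAD9, which enter the nucleus with SMAD4. The ID genes are classical direct targets of these SMADs and also respond to serum. ID proteins have a helix-loop-helix domain but no DNA-binding region, so they bind E proteins such as TCF3 and TCF4 and keep them off DNA. Their textbook role is to hold cells in an undifferentiated, cycling state.

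The table held 6 columns per assay. Quiescence was brought about by serum depletion. An inducible RASG12V, an oncogenic RAS, was switched on with 4-OHT-tamoxifen for 5 days in pre-senescent cells and for 14 days in senescent cells. The transformed cells carried hTERT, a knockdown of p16INK4A among other changes, SV40 small T and a retroviral RASG12V (pBabe-puro). Proliferating cells under normal conditions were given in one column for each of 2 sequencing runs. Run 1 held a proliferation column that joins 2 libraries, quiescence and pre-senescence, and run 2 held a single proliferation library, senescence and transformation. Each state was compared with the proliferation column of its own run, as the study did. With 1 column per state there was no replicate spread and no test, so a difference of at least 2-fold counts as called, and the distance between both proliferation columns is given as the only measure of how far 2 cultures of 1 state lie apart. That distance also contains the run, and for each gene it is a single difference, which can be small where the spread is not.

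Several facts of the series bear on these comparisons. One label field of the senescent and of the run 2 proliferating Ribo-Seq library gives each the state of the other, and the titles, which match the column names, were followed. MKI67, a proliferation marker, was at the floor of 1 FPKM in both senescent columns and at 44.0 (RNA-Seq) and 43.0 FPKM (Ribo-Seq) in the run 2 proliferation columns. In quiescence it was at 32.8 (RNA-Seq) and 31.9 FPKM (Ribo-Seq), against 73.9 and 57.95 FPKM in run 1 proliferation. Transformed cells had 29.2 and 46.5 FPKM. HRAS, a RAS gene, stood at 2415 and 1284 FPKM of RNA in the proliferation columns, at 2087 FPKM in the senescent one and at 312 FPKM in the transformed one. The part of this HRAS difference in the comparison of senescent with transformed cells was not tested. The sources used here do not give whether proliferating and serum-depleted cells carried the inducible construct. CDKN2A, the gene of p16INK4A, was at 17.2 and 6.75 FPKM of RNA in the proliferation columns of run 1 and run 2. It was at 12.6 FPKM in transformed cells, with Ribo-Seq at 8.92 FPKM in run 2 proliferation and 5.51 FPKM in transformed cells. The gene was measured on 1 transcript, so these values cannot be read as the level of p16INK4A itself. All 10 fibroblast markers had a row, with a summed RNA level of 5249 to 7515 FPKM, most of it VIM in all columns but run 2 proliferation, and none of the 5 endothelial and none of the 5 muscle markers had one. Single fibroblast markers differed widely beneath that sum. COL1A1 RNA was 371 and 1328 FPKM in the proliferation columns and 51.6 FPKM in senescence, PDGFRB 36.2 and 48.45 FPKM and 4.49 FPKM, and DCN 27.6 and 164 FPKM and 11.3 FPKM. The part of this in the senescence results was not tested. Of 7 epithelial markers 3 had a row (summed RNA 105 to 313 FPKM, mostly KRT18, with KRT19 at 39.8 FPKM in run 2 proliferation and at the floor in run 1 proliferation and in transformed cells), and of 5 blood markers 2 (39.3 to 133 FPKM, nearly all CD68).

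Because ID1, ID2 and ID3 were low together in senescence, the 250 bases upstream of their RefSeq start sites are shown (GRCh38.p14). They lie at chr20:31605039-31605288 on the plus strand for ID1, chr2:8681806-8682055 on the plus strand for ID2 and chr1:23559502-23559751 on the minus strand for ID3. Capitals mark matches on either strand to the core SMAD box, spelled GTCT. They also mark the TATA box, which was searched as the letters TATAA in both directions. The last motif in capitals is the binding sequence of the general factor NF-Y, the CCAAT box. The table follows Ensembl transcripts on an older build, so the starts of the measured transcripts may differ.
ID1: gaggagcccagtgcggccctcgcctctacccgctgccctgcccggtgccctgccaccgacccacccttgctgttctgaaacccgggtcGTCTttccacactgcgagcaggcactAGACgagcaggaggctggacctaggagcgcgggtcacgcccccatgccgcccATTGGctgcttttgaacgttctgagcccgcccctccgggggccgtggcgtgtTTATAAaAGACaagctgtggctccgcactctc
ID2: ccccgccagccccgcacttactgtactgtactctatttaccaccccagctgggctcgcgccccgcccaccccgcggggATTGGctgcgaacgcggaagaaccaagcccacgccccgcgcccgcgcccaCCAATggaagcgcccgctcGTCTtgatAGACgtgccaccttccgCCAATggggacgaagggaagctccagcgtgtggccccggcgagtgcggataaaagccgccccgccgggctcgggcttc
ID3: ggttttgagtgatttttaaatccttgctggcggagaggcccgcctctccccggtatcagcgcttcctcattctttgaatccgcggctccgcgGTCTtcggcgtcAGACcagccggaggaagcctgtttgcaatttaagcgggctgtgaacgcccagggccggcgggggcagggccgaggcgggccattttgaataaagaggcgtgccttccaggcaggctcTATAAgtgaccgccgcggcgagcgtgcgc
Of the 7 measured members, 6 had an entry in the RefSeq promoter table. The TATA box began 31 bases before the start of ID1, where it overlaps the same motif read on the other strand, and 29 bases before that of ID3, but was not found in this window of ID2. The box bound by NF-Y occurred 3 times upstream of ID2, 1 time upstream of ID1 and not upstream of ID3. The SMAD box occurred 3, 2 and 2 times upstream of ID1, ID2 and ID3. Among 35116 promoter windows of the same length, 77.5% held the SMAD box, 18.9% the TATA box and 32.0% the box bound by NF-Y. The letters GGCGCC, a GC-rich box found in BMP response elements, was in 16.4% of the windows and was not found in the 3 ID windows. It was present in 2 places in the first of 2 GREM1 windows and in 1 place upstream of BMPR2. Sequence beyond these 250 bases was not searched, so absence from a window says nothing about elements further upstream.

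Serum depletion was compared with proliferation to see which genes follow the loss of growth factors. ID1 and ID3 were far below the proliferating level in both assays, ID2 was lower by less, and the receptors and GREM1 lay close to it. Of the 7 members tested in RNA, 2 were called, both lower, against 2.43% of 9473 genes called lower and 4.11% called higher. In Ribo-Seq 2 of 6 tested were called, the same genes, against 8.2% of 9491 genes called lower and 9.31% called higher.

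ID1, a dominant-negative partner of E proteins, had 164 FPKM of RNA in run 1 proliferation and 15.5 FPKM in quiescence, a 10.6-fold lower level (log2 difference -3.41). Its Ribo-Seq level was 381 FPKM in proliferation and 32.7 FPKM in quiescence (-3.54). Both values lie far outside the distance between the proliferation columns, which was 0.04 in RNA and 0.44 in Ribo-Seq on the log2 scale. ID3, a close homologue, had 145 FPKM of RNA in proliferation and 10.98 FPKM in quiescence, 13.2-fold lower (-3.72). Its Ribo-Seq level was 372 FPKM in proliferation and 32.1 FPKM in quiescence (-3.53). The RNA difference of ID3 was the lowest of all 9473 genes tested, and that of ID1 ranked 2 from the bottom. In Ribo-Seq, ID1 ranked 2 and ID3 ranked 3 from the bottom of 9491 genes. In these bulk samples, fewer cells expressing a gene and less RNA per cell cannot be told apart.

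ID2 moved less. Its RNA was 26.1 FPKM in proliferation and 13.4 FPKM in quiescence (-0.97), just short of 2-fold, and its Ribo-Seq level was 59.2 and 37.4 FPKM (-0.66). The distance between the proliferation columns of ID2 was 0.42 in either assay. Summed over the 3 genes, ID RNA was 336 FPKM in proliferation and 39.8 FPKM in quiescence, and the share of ID2 in that sum was 7.79% and 33.6%. Quiescence is the state in which the levels of ID1, ID2 and ID3 lay nearest to each other.

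**Figure D1:**
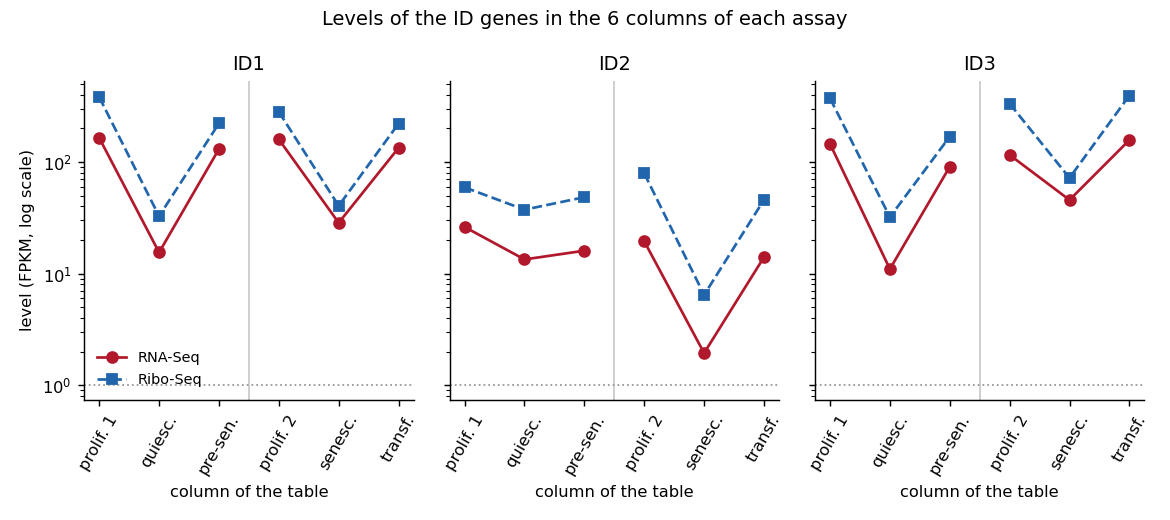
Levels of ID1, ID2 and ID3 (FPKM, log axis) in the 6 columns of RNA-Seq (red circles) and Ribo-Seq (blue squares), with run 1 left and run 2 right of the grey line and the floor of 1 FPKM dotted; each point is 1 column and the lines only join columns of 1 run. ID1 and ID3 were lowest in quiescence and next lowest in senescence, and ID2 was lowest in senescence (1.94 FPKM of RNA).

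TE differed little beside these RNA differences. For ID1 the TE difference in quiescence was -0.13, for ID3 0.19 and for ID2 0.30, and 0 of 6 members tested were called, against 7.06% of 9061 genes. The median TE difference of those genes was -0.06. The plot of all genes shows that ID1 and ID3 stand apart from most genes and lie near the diagonal.

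**Figure D2:**
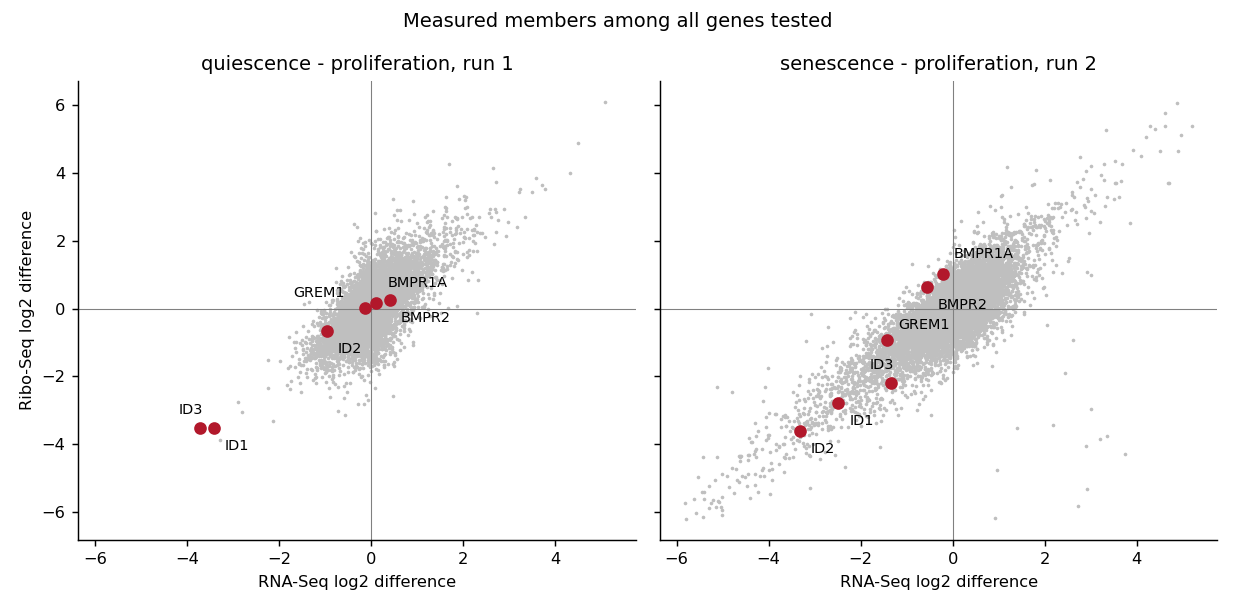
Log2 difference in RNA-Seq (x axis) and Ribo-Seq (y axis) of every gene tested in both (grey) and of the measured members (red), for quiescence (left) and senescence (right), each against proliferation of its own run. In quiescence ID1 and ID3 lie at the lower left end (-3.41 and -3.72 in RNA); in senescence ID1, ID2 and ID3 lie along the lower arm while BMPR1A and BMPR2 lie above zero in Ribo-Seq only.

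The pre-senescent state, 5 days into RAS induction, left ID1 and ID3 much nearer to proliferation than quiescence did, and ID2 somewhat nearer. ID1 RNA was 131 FPKM (-0.33) and its Ribo-Seq level 222 FPKM (-0.78). ID2 RNA was 16.03 FPKM (-0.71) and its Ribo-Seq level 48.35 FPKM (-0.29). ID3 RNA was 90.7 FPKM (-0.68) and its Ribo-Seq level 169 FPKM (-1.14). All 6 of these values lay below proliferation, and the Ribo-Seq difference of ID3 alone reached 2-fold. That was 1 of 6 members tested in Ribo-Seq, against 10.6% of 9461 genes called lower and 7.31% called higher. Against run 2 proliferation (333 FPKM) the Ribo-Seq level of ID3 fell just short of 2-fold lower. In RNA, ID2 ranked 437, ID3 491 and ID1 1412 from the lowest of 9447 genes. The RNA differences of all genes had an SD of 0.45 in this state, beside 1.00 in senescence.

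In RNA 1 of 7 members was called at day 5, BMP2, a ligand of the pathway, against 1.82% of 9447 genes called higher and 2.05% called lower. BMP2 was at the floor of 1 FPKM in both proliferation columns and at 2.74 FPKM in pre-senescence, so it was at least 2.74-fold higher. Its Ribo-Seq value was at the floor in pre-senescence. At so low a level the call rests on little RNA, and it was lost when 1 FPKM was added to every value (0 of 7 members). In TE 0 of 6 members were called, against 13.2% of 8928 genes.

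After 14 days of RAS, in full senescence, ID1, ID2 and ID3 were all called lower in both assays, BMPR1A was called higher in Ribo-Seq, and both receptors were called higher in TE. In RNA 4 of 7 members were called, all lower, against 13.2% of 9560 genes called lower and 7.19% called higher. In Ribo-Seq 3 of 6 were lower, against 16.8% of 9544 genes, and 1 was higher, against 11.2%.

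ID2 showed the largest difference of the 3 ID genes. Its RNA was 19.5 FPKM in run 2 proliferation and 1.94 FPKM in senescence, 10.0-fold lower (-3.33). Its Ribo-Seq level was 79.1 FPKM in proliferation and 6.44 FPKM in senescence (-3.62). The RNA value of ID2 in senescence is close to the floor of 1 FPKM, so its fold rests on little RNA. ID1 RNA was 159.5 FPKM in proliferation and 28.5 FPKM in senescence, 5.59-fold lower (-2.48), and its Ribo-Seq level was 281 and 40.5 FPKM (-2.80). ID3 RNA was 116 FPKM in proliferation and 45.7 FPKM in senescence, 2.53-fold lower (-1.34), and its Ribo-Seq level was 333 and 72.0 FPKM (-2.21). All of these differences exceeded the distance between the proliferation columns, which was at most 0.44 for any of the 3 genes in either assay. The order of the 3 genes by RNA difference was ID2, ID1, ID3 in senescence and ID3, ID1, ID2 in quiescence. These 2 states were sequenced in different runs, so their difference was not computed.

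The Ribo-Seq differences of senescence rest on the 2 libraries whose labels disagree. With both exchanged, the Ribo-Seq difference of ID1 would be 2.80, of ID2 3.62 and of ID3 2.21, all opposite to their RNA. The exchange would likewise set MKI67 in Ribo-Seq opposite to its RNA, whereas under the titles MKI67 was at the floor in both assays of senescence. The RNA differences do not use those libraries.

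TE of ID3 was 1.53 in run 2 proliferation and 0.66 in senescence on the log2 scale (-0.87), a difference not called and larger than the 0.17 between the proliferation columns. It ranked 754 from the lowest of 8839 genes, and over all genes the TE difference between the proliferation columns had an SD of 0.59. TE of ID1 differed by -0.31 and TE of ID2 by -0.29, both within the distance between the proliferation columns (0.39 and 0.84).

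Transformed cells also carry RASG12V, though not the tamoxifen-induced form of the senescent cells. In them p16INK4A was knocked down among other changes, and the ID genes were near the proliferating level. ID1 RNA was 134 FPKM (-0.25) with a Ribo-Seq level of 221 FPKM (-0.35). ID2 RNA was 14.0 FPKM (-0.47) with a Ribo-Seq level of 45.7 FPKM (-0.79). ID3 RNA was 157 FPKM (0.44) with a Ribo-Seq level of 394 FPKM (0.24). None of the 3 was called in either assay. The 2 members called in RNA, BMP2 higher and GREM1 lower, were also called in Ribo-Seq, against 4.97% of 9593 genes called higher and 5.39% called lower in RNA, and 5.34% and 7.44% of 9595 in Ribo-Seq.

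Set directly against transformed cells of the same run, senescent cells had 4.69-fold less ID1 RNA (-2.23), 7.23-fold less ID2 RNA (-2.85) and 3.44-fold less ID3 RNA (-1.78). In Ribo-Seq the differences were -2.45, -2.83 and -2.45. Of 7 members, 5 were called in RNA (4 lower, against 15.3% of 9567 genes, and 1 higher, against 8.19%), and the same 5 in Ribo-Seq (4 lower, against 17.5% of 9581 genes, and 1 higher, against 12.8%). In TE 0 of 6 were called, against 4.97% of 8815 genes.

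Of the ligands, BMP2 was measurable in the transformed column above all. Its RNA was 9 FPKM there and 1.52, 2.74 and 1.29 FPKM in quiescence, pre-senescence and senescence, with both proliferation columns at the floor. Transformed cells therefore had at least 9-fold more BMP2 RNA than run 2 proliferation. BMP2 Ribo-Seq was 3.95 FPKM in the transformed column and at the floor in the other columns, at least 3.95-fold higher. With a filter at 5 FPKM BMP2 was no longer tested in Ribo-Seq. In senescence its RNA was 6.98-fold lower than in transformed cells (-2.80).

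GREM1 encodes gremlin, a secreted protein that binds BMP ligands and keeps them from their receptors. Its RNA was 167 FPKM in run 1 proliferation, 154 FPKM in quiescence and 157 FPKM in pre-senescence, which lie within 0.12 log2 units of proliferation. In run 2 it was 457 FPKM in proliferation, 169.85 FPKM in senescence and 48.3 FPKM in transformed cells. The Ribo-Seq levels were 284, 287 and 256 FPKM in run 1 and 675, 355 and 94.5 FPKM in run 2, in the same order of states as the RNA in run 2 but not in run 1. The proliferation columns thus differed by 1.45 in RNA and 1.25 in Ribo-Seq. GREM1 was the 1 member of 6 tested past 2-fold between them, against 4.93% of genes called higher in run 2 in RNA and 10.5% in Ribo-Seq.

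In transformed cells GREM1 was 9.45-fold lower in RNA (-3.24) and 7.14-fold lower in Ribo-Seq (-2.84) than in proliferation. Both differences exceed the distance between the proliferation columns, and the transformed level was the lowest of the 6 columns in both assays. In senescence it was 2.69-fold lower in RNA (-1.43) and 1.90-fold lower in Ribo-Seq (-0.93), about as far as the proliferation columns lie from each other. Against the proliferation column of run 1 the senescent RNA difference was 0.021. Senescent cells had 3.51-fold more GREM1 RNA than transformed cells (1.81).

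The receptors BMPR1A, a type I kinase, and BMPR2, the type II kinase that activates it, had their highest Ribo-Seq level in senescence, and neither was called in RNA in any state against proliferation. BMPR1A RNA lay between 12.02 and 14.59 FPKM in all 6 columns. Its Ribo-Seq level was 5.83 FPKM in run 1 proliferation, 6.47 FPKM in quiescence and 9.42 FPKM in pre-senescence, and 5.73 FPKM in run 2 proliferation, 11.6 FPKM in senescence and 7.09 FPKM in transformed cells. All 4 states lay above proliferation of their run, the RAS states at day 5 and day 14 the most.

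TE of BMPR1A was -1.21 and -1.27 in the proliferation columns, where 8.02% and 6.18% of genes had a lower TE. It was -0.38 in pre-senescence (a difference of 0.82) and -0.05 in senescence, a difference of 1.22 that ranked 79 from the top of 8839 genes. BMPR2 RNA was 11.8, 15.7 and 10.47 FPKM in run 1 and 19.5, 13.2 and 11.03 FPKM in run 2, in the order proliferation, quiescence, pre-senescence and proliferation, senescence, transformation. Its Ribo-Seq level was 10.98, 12.99 and 9.29 FPKM in run 1 and 14.6, 22.4 and 12.1 FPKM in run 2. TE of BMPR2 was -0.42 in run 2 proliferation and 0.77 in senescence, a difference of 1.19 that ranked 100 from the top. It combines an RNA difference of -0.56 with a Ribo-Seq difference of 0.62, and BMPR2 RNA differed by 0.72 between the proliferation columns.

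These 2 receptors were the members called in TE in senescence, 2 of 6 tested, both higher, against 2.68% of 8839 genes called higher. The proliferation columns of TE lay 0.07 apart for BMPR1A and 0.32 apart for BMPR2. The TE differences of senescence rest on the libraries with disagreeing labels, and with those exchanged they would be -0.81 and -0.058. Against run 1 proliferation BMPR1A alone was called, and BMPR2 differed by 0.87. In transformed cells TE differed by 0.35 for BMPR1A and 0.55 for BMPR2, neither called (0 of 6 members, against 2.69% of 9122 genes).

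**Figure D3:**
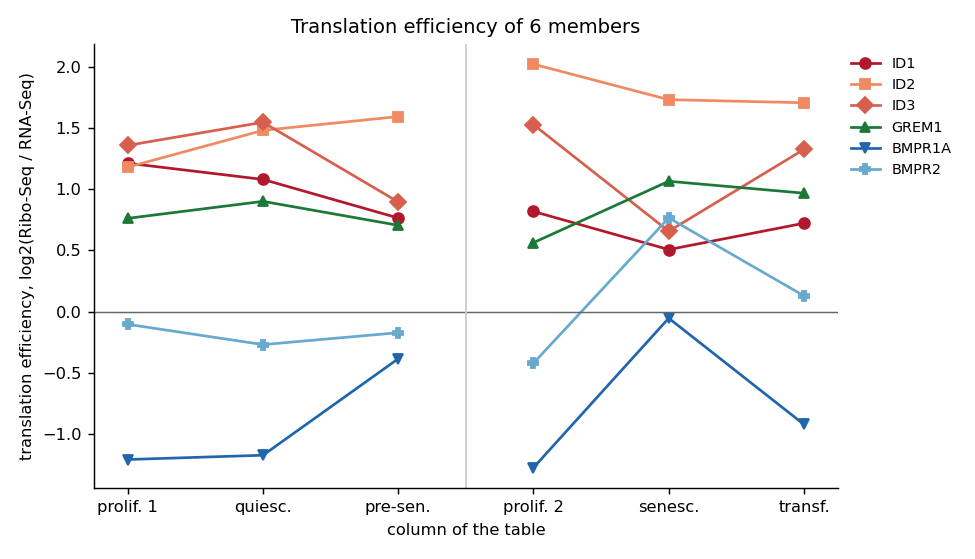
Translation efficiency, log2(Ribo-Seq/RNA-Seq), of the 6 members with both values above the floor in all columns, run 1 left and run 2 right of the grey line; each point is 1 column and no error is available. BMPR1A (dark blue) and BMPR2 (light blue) are highest in senescence (-0.05 and 0.77), where ID3 is lowest (0.66).

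The other genes of the pathway were taken from a list of 60 genes that are no members, by role, of which 27 had a row. In RNA, 3 of 27 were called higher and 4 lower in quiescence, 0 and 5 of 27 in pre-senescence, 0 and 11 of 26 in senescence, and 3 and 6 of 26 in transformed cells. The median differences were -0.24, -0.24, -0.53 and -0.20, beside -0.01, 0.04, -0.02 and 0.09 over all genes tested. In Ribo-Seq, 4 of 27 were called higher and 3 lower in quiescence, 1 and 11 in pre-senescence, 1 and 10 in senescence, and 2 and 6 in transformed cells. Over all genes, 4.11% were called higher and 2.43% lower in RNA in quiescence, 1.82% and 2.05% in pre-senescence, 7.19% and 13.2% in senescence, and 4.97% and 5.39% in transformed cells. In Ribo-Seq these shares were 9.31% and 8.2%, 7.31% and 10.6%, 11.2% and 16.8%, and 5.34% and 7.44%, and the quiescence counts in Ribo-Seq lay near them.

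**Figure D4:**
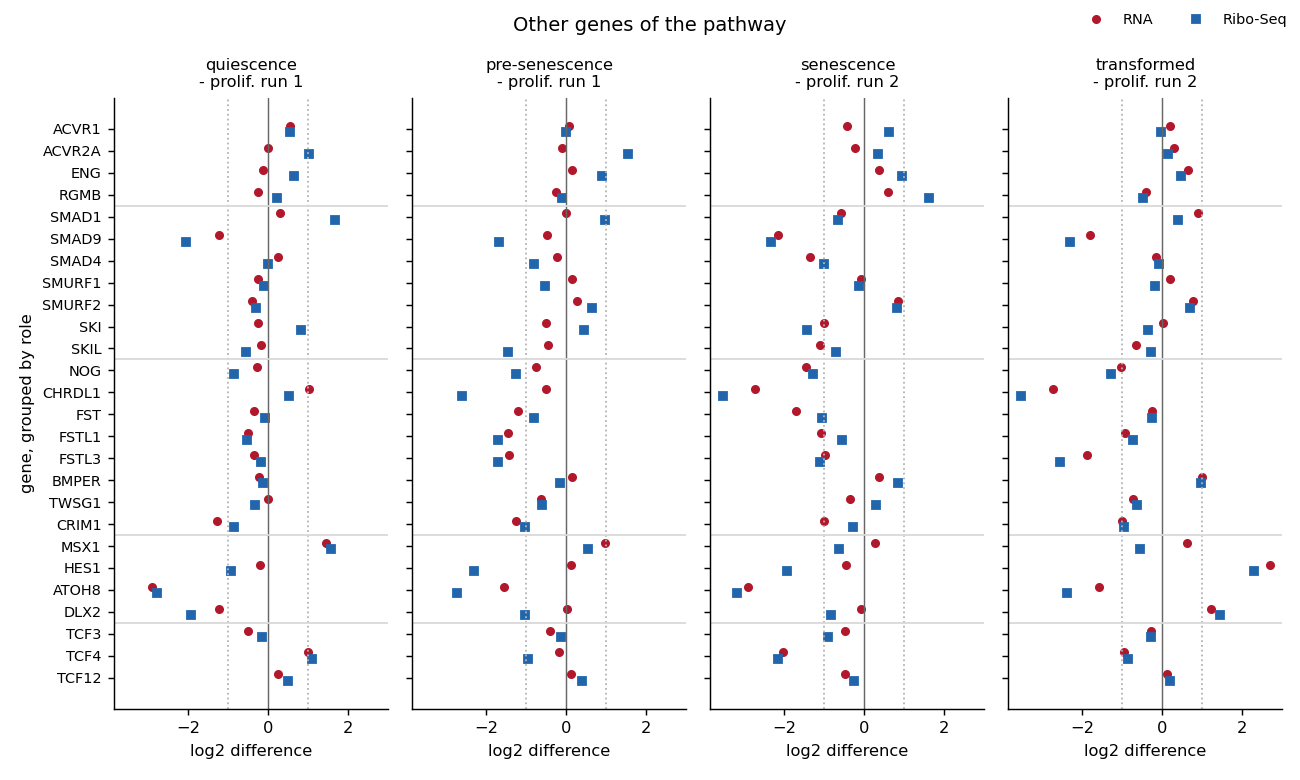
Log2 differences in RNA-Seq (red circles) and Ribo-Seq (blue squares) of 26 pathway genes that are no members, grouped by role between the grey lines (receptors and co-receptors, SMADs and their brakes, antagonists, targets, E proteins), for each state against proliferation of its own run; dotted lines mark 2-fold. SMAD9 and ATOH8 lie left of zero in all 4 states, as do SKIL, NOG, FST, FSTL1, FSTL3, CRIM1 and TCF3. Most antagonists lie left of zero in senescence.

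Among the receptors and co-receptors, 0 of 6 with a row were called in RNA in any state against proliferation. RGMB, a co-receptor that binds BMP ligands, had 72.3 FPKM of Ribo-Seq in run 2 proliferation and 224 FPKM in senescence (1.63), with an RNA difference of 0.60. ACVR1, another type I receptor, had an RNA difference of -0.42 and a Ribo-Seq difference of 0.64 in senescence, a TE difference of 1.06. With BMPR1A and BMPR2, 4 of the 5 receptors and co-receptors tested in TE were called higher in senescence, against 2.68% of all genes, with a median difference of 1.06 beside -0.04 over all genes. ACVR1 and RGMB were named here after their values were seen, and the count rests on the Ribo-Seq libraries with disagreeing labels.

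Of the SMAD proteins and their brakes, 7 of 10 had a row. SMAD9, both a BMP-receptor SMAD and a target of the pathway, had RNA levels of 2.52 FPKM in run 1 proliferation, 1.08 FPKM in quiescence and 1.81 FPKM in pre-senescence. In run 2 it had 4.46 FPKM in proliferation, 1.28 FPKM in transformed cells and the floor value in senescence. SMAD9 was called lower in both assays in quiescence (-1.22 and -2.05), senescence (-2.16 and -2.32) and transformed cells (-1.80 and -2.29), where values at the floor make the difference a lower bound in size. All of its levels were under 5 FPKM. SKI, a corepressor that binds SMADs, was called lower in senescence in both assays (-1.002 and -1.42). SMAD1 and SKI were called lower in both assays in senescence against transformed cells (-1.47 and -1.05 for SMAD1, -1.04 and -1.07 for SKI). SMAD1 had only 3.02 FPKM of RNA and 4.04 FPKM of Ribo-Seq in senescence. Its proliferation columns lay 2.01 apart in Ribo-Seq, further than that difference.

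Of the antagonists, 9 of 18 had a row, GREM1 included. In RNA 1 was called higher and 1 lower in quiescence, 0 and 4 in pre-senescence, 0 and 6 in senescence, and 1 and 5 in transformed cells. Over all genes the shares called lower were 2.43%, 2.05%, 13.2% and 5.39%, and the shares called higher were 4.11%, 1.82%, 7.19% and 4.97%. Between the proliferation columns 3 of the 9 were called higher in RNA in run 2, against 4.93% of all genes, and 1 lower, for which the share is not given. FSTL1, a follistatin-like secreted protein, had 267 FPKM of RNA in run 1 proliferation and 98.0 FPKM in pre-senescence (-1.45), with -1.70 in Ribo-Seq. FSTL3, which binds activins, differed by -1.42 and -1.70, and CRIM1, a membrane protein that binds BMPs, by -1.25 and -1.02. In senescence the 3 with the largest RNA difference that were called in both assays were CHRDL1, FST and NOG. CHRDL1, a chordin-like BMP antagonist, had 6.56 FPKM of RNA in proliferation and was at the floor in senescence and in transformed cells, at least 6.56-fold lower. FST, follistatin, differed by -1.69 in RNA and -1.04 in Ribo-Seq, but also had 85.1 FPKM of RNA in run 1 proliferation and 26.3 FPKM in run 2. NOG, noggin, differed by -1.44 and -1.28, from 2.71 FPKM of RNA in proliferation to the floor. The proliferation columns of NOG lay 0.96 apart in RNA and 1.62 in Ribo-Seq, the latter further than its senescence difference. In transformed cells GREM1, CHRDL1 (-2.71 and -3.53) and FSTL3 (-1.88 and -2.54) were the 3 with the largest RNA difference among those called in both assays. The proliferation columns lay 1.89 apart in FSTL3 RNA, as far as the transformed difference, and 1.54 apart in CHRDL1 RNA. BMPER, a secreted BMP-binding protein, was called higher in RNA alone (1.006, with 0.99 in Ribo-Seq).

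Of 12 further targets of the pathway, 4 had a row. ATOH8, a BMP target that encodes a bHLH factor, had 7.40 FPKM of RNA in run 1 proliferation, the floor value in quiescence and 2.53 FPKM in pre-senescence. In run 2 it had 8.94 FPKM in proliferation, 1.20 FPKM in senescence and 3.01 FPKM in transformed cells. ATOH8 was called lower in both assays in all 4 states, by -2.89, -1.55, -2.90 and -1.57 in RNA. MSX1, a homeobox target, went the other way in quiescence, from 11.1 to 30.5 FPKM of RNA (1.46) and by 1.58 in Ribo-Seq. HES1, better known as a Notch target, was higher in transformed cells (2.70 and 2.31), and DLX2, a homeobox gene, was lower in quiescence (-1.22 and -1.93) and higher in transformed cells (1.23 and 1.45). DLX2 and HES1 were under 3 FPKM of RNA in proliferation.

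All 3 E proteins, the binding partners of ID proteins, had a row. TCF4 had 10.6 FPKM of RNA in run 1 proliferation and 21.4 FPKM in quiescence (1.01), with 1.11 in Ribo-Seq. In run 2 it had 17.1 FPKM in proliferation, 4.24 FPKM in senescence (-2.01, with -2.14 in Ribo-Seq) and 8.86 FPKM in transformed cells (-0.95). TCF3 RNA lay between 18.1 and 35.4 FPKM and TCF12 RNA between 20.9 and 41.1 FPKM over the 6 columns, and neither was called in any state against proliferation. ID1 and ID3 were low both in quiescence and in senescence, whereas TCF4 was called higher in quiescence and lower in senescence. The TCF4 call in quiescence lay just past 2-fold in RNA and depends on the run 1 column. Its quiescent RNA level of 21.4 FPKM was under 2-fold above the 17.1 FPKM of run 2 proliferation.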

How the data were processed

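RNA-Seq and Ribo-Seq libraries of BJ cells (17 labelled libraries, 9 and 8) were deposited as 1 table of FPKM values. The authors aligned reads with Bowtie (hg19 in the submitters' processing notes) to 1 Ensembl protein-coding transcript per gene, kept uniquely mapped reads, computed FPKM from all reads of a transcript (RNA-Seq) or from its coding sequence (Ribo-Seq), set FPKM below 1 to 1 and kept transcripts with enough reads. Run 2 RNA was sequenced single-end and the other RNA paired-end. Of the 12 columns, 5 join 2 libraries each, as the authors' value without a spread. FPKM values carry no read counts, so the depth behind each value is unknown and no interval is given.

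From these, log2 differences were computed in Python 3.11.15 with pandas 2.3.3 and numpy 2.4.6 and no pseudocount. A gene was tested where at least 1 of 2 values (for TE, all 4) exceeded the floor of 1 FPKM. A difference of 2-fold was called, and no p-value was computed. The procedure was tested on simulated data. Members, lists and rules were chosen with earlier results of these data known. Named genes outside the members are those called in the same direction in both assays of a comparison, at most 3 per list by RNA difference; RGMB and ACVR1 in senescence, BMPER, GDF6, CDKN2A, marker genes and values of genes not called were added after their values were seen. Alternatives were a pseudocount of 1 FPKM, filters (none, 5 FPKM), median centring, a 1.5-fold and a local SD call rule (500 genes), the other run's proliferation column and exchanged Ribo-Seq labels. One further gene altered in the transformed cells is not reported here.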

Additional observations from a re-analysis of the deposited data

Results flagged for a closer look

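ID3 lay below proliferation in senescence and slightly above it in transformed cells, the 2 states with RASG12V in run 2. Against proliferation it differed by -1.34 in RNA and -2.21 in Ribo-Seq in senescence, and by 0.44 in RNA and 0.24 in Ribo-Seq in transformed cells. This was noticed because both assays of one state lay below and both assays of the other above the shared proliferation column. The transformed values were not called and lie close to the distance between the proliferation columns (0.33 and 0.16). Against run 1 proliferation they were 0.12 and 0.084. Each state is 1 library per assay, and the difference was not tested.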

How the results depend on the processing

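No paired analysis was possible because the columns carry no replicate number and no result comes from a test; leaving out a replicate was likewise not possible. Values under 5 FPKM are close to the floor, and the table does not give their depth. Among them are values of BMP2, SMAD9, SMAD1, ATOH8 and NOG, and ID2 RNA in senescence (1.94 FPKM). The 15 counts of members past 2-fold kept their value within 1.5 times under median centring. With a pseudocount of 1 FPKM, and with a filter at 5 FPKM, pre-senescence had 0 members called in RNA in place of 1, and with the latter transformed cells had 1 in Ribo-Seq in place of 2. With no filter on low values, TE had 1 member called in place of 0 in pre-senescence and 1 in place of 0 in transformed cells (BMP2, a ratio with floor values). At 1.5-fold in place of 2-fold, 4 members were called in RNA in quiescence in place of 2, 3 in RNA, 3 in Ribo-Seq and 1 in TE in pre-senescence in place of 1, 1 and 0, and 3 in TE in senescence against transformed cells in place of 0. By the local SD call rule that last count was 1 (BMPR1A). With the proliferation column of the other run, quiescence had 4 members called in Ribo-Seq in place of 2, pre-senescence 2 in RNA in place of 1, and senescence 1 in TE in place of 2, and the RNA difference of GREM1 in senescence turned from -1.43 to 0.021. The extra calls in quiescence and pre-senescence are GREM1, whose proliferation columns differ, and ID2 in quiescence. In pre-senescence Ribo-Seq, GREM1 (256 against 675 FPKM) was then called lower and ID3 (169 against 333 FPKM) no longer was. The cause was not tested.

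With the Ribo-Seq labels of senescence and proliferation exchanged, 4 members were called in TE in senescence in place of 2, 5 in Ribo-Seq and 4 in TE in transformed cells in place of 2 and 0, and 2 in Ribo-Seq and 4 in TE in senescence against transformed cells in place of 5 and 0. By construction the Ribo-Seq differences in senescence then turn to 2.80 (ID1), 3.62 (ID2), 2.21 (ID3) and -1.02 (BMPR1A), its TE differences to -0.81 (BMPR1A) and -0.058 (BMPR2), and the Ribo-Seq differences against transformed cells to 0.35 (ID1) and 0.79 (ID2). Of 496 single values recomputed, 427 moved by no more than the distance between the proliferation columns, 60 moved further and 9 changed sign after having been called. Counts over all genes moved by over 1.5 times as well. At 1.5-fold 1192 to 5085 genes were called in place of 245 to 2905, and by the local SD call rule 591 to 768 in place of 245 to 2905. In TE the filter at 5 FPKM left 83 to 495 in place of 245 to 1182, and the pseudocount 128 and 382 in place of 245 (transformed cells) and 640 (quiescence). The other run's column gave 1076 to 2077 in place of 245 to 1226, and the exchanged labels 1226 to 4049 in place of 245 to 2905.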

Other observations

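Of 5 arrest genes listed beside the ID genes, 3 had a row. CDKN1A, which encodes the cell-cycle inhibitor p21, had 172 FPKM of RNA in run 2 proliferation, 814 FPKM in senescence (2.25, with 1.30 in Ribo-Seq) and 80.3 FPKM in transformed cells (-1.10 and -1.37). In quiescence CDKN1A RNA was 129 FPKM against 80.8 FPKM in run 1 proliferation, not called. CDKN1B, which encodes p27, was lower in senescence (-1.74 in RNA and -2.13 in Ribo-Seq). CDKN2A RNA was 6.75 FPKM in run 2 proliferation and 27.9 FPKM in senescence, with Ribo-Seq at 8.92 and 6.33 FPKM. GDF6, the other BMP ligand with a row, had 5.77 FPKM of Ribo-Seq in run 1 proliferation, 5.58 FPKM in quiescence and the floor value in pre-senescence. In run 2 it had 2.02 FPKM in proliferation and the floor value in senescence and transformed cells.

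Over the 8 differences of the 4 states in both assays, which share the proliferation columns of their run, the genes whose pattern was most like ID1 among 6455 genes were PWP2 (Pearson's r of 0.99), DDX20 (0.98), BMS1 (0.97), NIP7 (0.97) and UCK2 (0.97). Their differences were small beside those of ID1, with -0.63 in RNA in quiescence for PWP2. PWP2 also lay above proliferation where ID1 lay below it, in pre-senescence (0.41 in RNA and 0.32 in Ribo-Seq) and in transformed cells (0.54 and 0.61), so the likeness is in the shape of the pattern and not in its sign. ID3 had an r of 0.93 with ID1 and ID2 an r of 0.44, and 59 genes reached at least 0.9. The genes most like GREM1 were RDH10 (0.99), DSP (0.98), INPP4B (0.98), RGS4 (0.97) and SYPL2 (0.97). RDH10 RNA differed by -4.48 in transformed cells. These are descriptions over 8 values, and with so few many genes reach a high r.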
